A study of Mus musculus and Rattus norvegicus with 6 samples.

Results

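Genes of cell-to-cell junctions were followed in mouse smooth muscle cells (SMCs) after knockdown of the transcriptional coactivators YAP and TAZ. They were 5 connexins (Gja1, Gja4, Gja5, Gjc1 and Gjb2) and 5 cadherins (Cdh2, Cdh3, Cdh5, Cdh11 and Cdh13), picked by gene symbol, 10 of the 55573 genes in the count table. The study asked how stretch of penile smooth muscle acts through YAP/TAZ during erection, and the knockdown was used to look for genes that depend on YAP/TAZ. Of the 6 samples in the series, 4 were bulk RNA-seq libraries of these cells, and the 2 rat single-nucleus samples were not analysed here. The 2 siYAP/TAZ libraries came from cells given small interfering RNA (siRNA) against YAP and TAZ, and the 2 siCo libraries came from cells given a control siRNA. All 4 carry a WT genotype label and the cell line label MOVAS, an immortalised line from mouse aorta, so that the model is 1 line. The study's figure legends instead call the cells primary penile SMCs, and which description holds could not be settled. The sources used here give neither the time between siRNA and harvest nor which YAP/TAZ siRNA was used. The table names 2 siYAP/TAZ columns that cannot be matched to single samples, so replicate 1 and replicate 2 name columns only for that group.

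Connexins are the subunits of gap junctions. They assemble into a hemichannel in the membrane, and hemichannels of neighbouring cells dock through their extracellular loops to form a channel that passes ions, calcium signals and small metabolites. In the vessel wall this coupling spreads contraction and relaxation between SMCs and between endothelium and muscle. Classical cadherins bind the same or a related cadherin on the next cell through their outermost extracellular domain, and hold the actin cytoskeleton through beta-catenin and alpha-catenin bound to their cytoplasmic tail. Cdh13 is the exception in this group, since T-cadherin has no cytoplasmic tail and is held in the membrane by a lipid anchor.

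The extracellular stretches through which these proteins meet the next cell are shown because they are what the members of each family share and where they differ. All were read from the GENCODE M21 coding sequence on GRCm38 (mm10). In every connexin below, capitals mark the 3 cysteine codons of the first extracellular loop, which in the folded protein pair with cysteines of the other loop. The stretch lies at chr10:56387706-56387741 (plus strand, exon 2 of 2) for Gja1, chr4:127312774-127312809 (minus, exon 2 of 2) for Gja4, chr3:97050788-97050823 (plus, exon 3 of 4) for Gja5, chr11:102800984-102801019 (minus, exon 3 of 3) for Gjc1 and chr14:57100558-57100593 (minus, exon 2 of 2) for Gjb2, and it is coding in each.
Gja1: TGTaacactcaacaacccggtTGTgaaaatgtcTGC
Gja4: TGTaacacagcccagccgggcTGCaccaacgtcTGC
Gja5: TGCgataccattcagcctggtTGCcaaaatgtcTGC
Gjc1: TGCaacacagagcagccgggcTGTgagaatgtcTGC
Gjb2: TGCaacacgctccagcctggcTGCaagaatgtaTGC
The spacing of the cysteines was the same in all 5, at residues 54 to 65 of Gja1, Gja4 and Gja5 and residues 53 to 64 of Gjc1 and Gjb2. The proteins differed more in length, from 226 residues in Gjb2 through 333 in Gja4, 368 in Gja5 and 382 in Gja1 to 396 in Gjc1.

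For the cadherins, the stretch shown is the 10 codons after the first match to the furin-type motif R-x-(K/R)-R, where the propeptide of a classical cadherin is cut off. Capitals mark tryptophan codons, since in classical cadherins a tryptophan at this new end swaps into the partner cadherin. It lies at chr8:106536618-106536647 (plus strand, exon 4 of 16) for Cdh3, chr8:104113034-104113063 (plus, exon 2 of 12) for Cdh5, chr8:102679651-102679680 (minus, exon 3 of 13) for Cdh11 and chr8:118757416-118757445 (plus, exon 4 of 14) for Cdh13.
Cdh3: gagTGGgtgatgccaccaatattcgtcccc
Cdh5: gacTGGattTGGaatcaaatgcacatcgat
Cdh11: ggcTGGgtcTGGaaccaattctttgtgata
Cdh13: tccattgtggtgtcccccatcttgatccca
The Cdh3 stretch held 1 tryptophan codon, those of Cdh5 and Cdh11 held 2, and that of Cdh13 held 0. The proteins had 714 residues in Cdh13, 784 in Cdh5, 796 in Cdh11, 822 in Cdh3 and 906 in Cdh2, whose stretch is not shown here.

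RefSeq promoter windows (250 bases before to 50 after the start, GRCm38.p6) matched 4 of the 10 members, Gja1, Gja4, Gja5 and Gjb2. YAP and TAZ reach DNA through TEAD factors, often beside AP-1 sites, so the windows were searched on both strands for the TEAD motif GGAATG, the AP-1 motif TGANTCA, the GC box GGGCGG and the CArG core of serum response factor; none of these motifs overlapped another in the 4 windows. GGAATG was in 0 of the 4 windows and in 14.6% of 27025 mouse promoter windows of the same length. The Gja1 window held 1 AP-1 match, which 7.93% of all windows held, with its first base at -19 from the start. It is shown in capitals in the 100 bases before the Gja1 start on chromosome 10, plus strand.
Gja1: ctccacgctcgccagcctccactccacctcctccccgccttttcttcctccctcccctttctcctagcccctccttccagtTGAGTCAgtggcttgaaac
The GC box was matched once in Gja4, once in Gja5 and at 2 places in Gjb2, against 35.9% of all windows with a match, and the CArG core in 0 of the 4, against 1.57% of all windows. These matches describe the letters of the windows only.

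Each library held 17192309 to 18751368 counts. The targeted genes were lower in the siYAP/TAZ libraries, with Yap1 at 1.87 and 2.03 FPKM, against 21.9 and 23.5 FPKM in siCo, and Wwtr1 (the gene of TAZ) at 16.8 and 17.7 FPKM, against 56.5 and 59.1 FPKM in siCo. FPKM is a count scaled to the exonic length of the gene and to the total count of the library, per kilobase and megacount. The matricellular targets Ccn1 and Ccn2 had log2 fold changes of -1.77 and -2.42 (SE 0.0421 and 0.0442). The quasi-likelihood test of edgeR was run on the counts, with p-values adjusted by Benjamini-Hochberg over the 15479 genes that passed a filter on low counts, and a gene was called when its adjusted p was below 0.05. It called 8569 genes, 55.4% of those tested, of which 4279 were higher (27.6%) and 4290 lower (27.7%) in siYAP/TAZ. Nothing in the labels says that the libraries came from separate cultures, so p-values measure only the spread between these libraries. In bulk RNA, fewer cells of a type and less RNA per cell cannot be told apart. Of 13 smooth muscle markers, all passed the filter, 8 fell, 1 rose and 4 did not pass the test, with summed levels of 239 to 246 FPKM in siYAP/TAZ and 372 to 380 FPKM in siCo. Acta2, smooth muscle actin, had 68.8 and 66.1 FPKM in siYAP/TAZ, against 138 and 142 FPKM in siCo, while Myh11, the smooth muscle myosin that defines contractile cells, reached no more than 1.29 FPKM and Myocd no more than 0.178 FPKM in any library.

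The connexins and cadherins changed in both directions and by unequal amounts. Of the 10 members, 7 passed the low-count filter (Gja1, Gja4, Gjc1, Cdh2, Cdh5, Cdh11 and Cdh13). In siYAP/TAZ, 4 of these were higher, 2 were lower and 1 did not pass the test, so that 6 of 7 were called where 55.4% of all tested genes were. The groups did not overlap in FPKM for any of the 7 members, which was also so for 77.2% of all tested genes. The median log2 fold change of the 7 was 0.198, beside -0.000329 for all tested genes, and their median absolute log2 fold change was 0.278, beside 0.328. The other members, Gja5, Gjb2 and Cdh3, had no more than 10 counts in any library and were not tested.

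**Figure D1:**
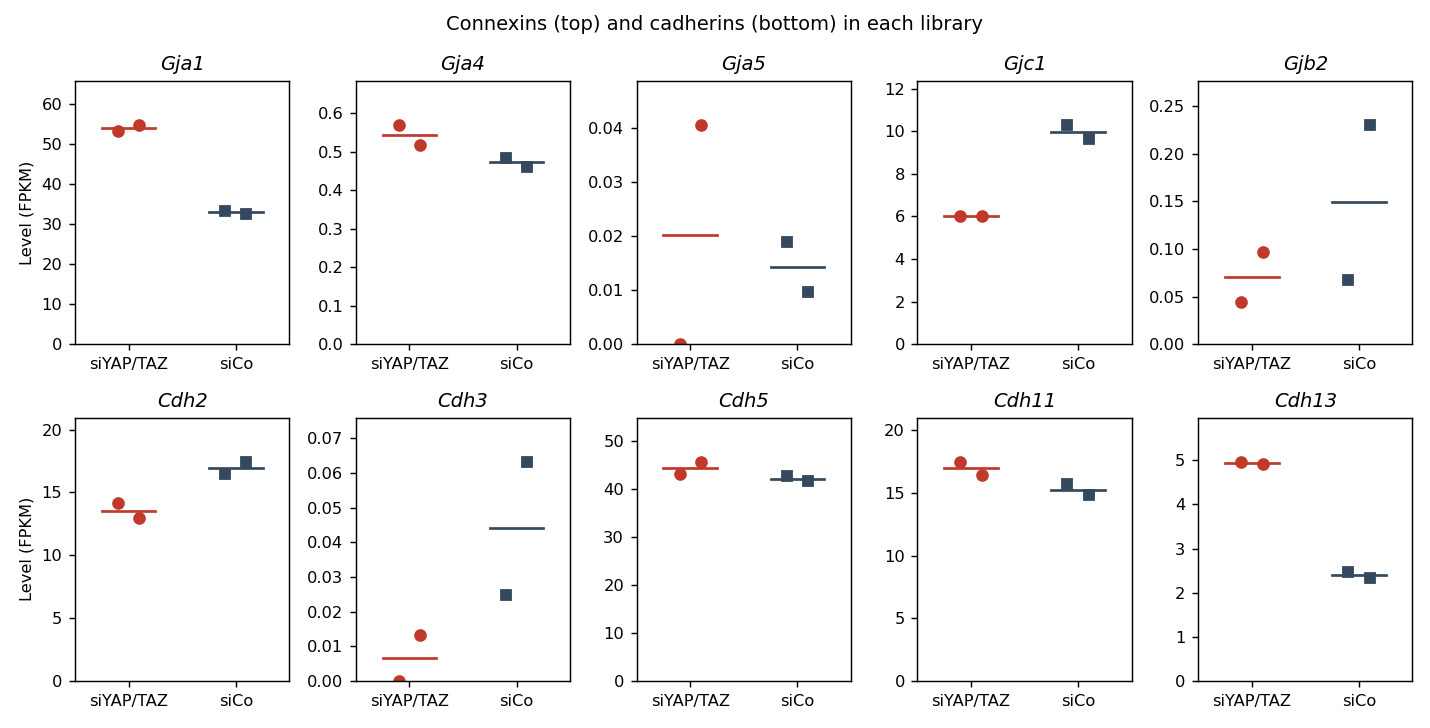
Level (FPKM, linear axes from 0, a scale of its own for each gene) of the 5 connexins and 5 cadherins, with 1 point per library, siYAP/TAZ as circles and siCo as squares, and a line at each mean of 2 libraries. Gja1 and Cdh13 were higher and Gjc1 and Cdh2 lower in both siYAP/TAZ libraries, while Gja5, Gjb2 and Cdh3 reached no more than 0.231 FPKM.

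Gja1 encodes connexin 43, the main connexin of cultured SMCs and of many other cell types. It lies at chr10:56377330-56402513 on the plus strand (ENSMUSG00000050953). The siYAP/TAZ libraries had 53.3 and 54.9 FPKM, against 33.4 and 32.7 FPKM in the siCo libraries, so that the groups were far apart relative to the gap within each. The means were 54.1 ± 1.11 FPKM in siYAP/TAZ and 33.1 ± 0.53 FPKM in siCo (SD, n = 2 each). These levels rest on 10253 and 9677 counts in siYAP/TAZ and 6314 and 6044 counts in siCo, the deepest of any member. Gja1 rose by a log2 fold change of 0.75 (SE 0.0414, 95% interval 0.67 to 0.84, 1.69-fold, edgeR adjusted p = 1.58e-12), and 81.3% of tested genes had a smaller absolute change.

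Gjc1 encodes connexin 45, a connexin of vascular SMCs and of the conducting cells of the heart, whose channels have a low conductance. It moved in the opposite direction to Gja1. Its level was 6.00 and 6.02 FPKM in siYAP/TAZ, against 10.3 and 9.64 FPKM in siCo. The 2 siYAP/TAZ libraries were almost equal and both lay below the lower siCo library. The log2 fold change was -0.69 (SE 0.0715, 95% interval -0.83 to -0.54, 1.61-fold lower, edgeR adjusted p = 4.52e-08). Gjc1 lies at chr11:102799579-102819700 on the minus strand, and its longest coding transcript shares a stretch of 60 bases with a Herc6 transcript.

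Gja4 encodes connexin 37, a connexin of arterial endothelium. It was near the floor of what these libraries resolve, with 18 and 15 counts in siYAP/TAZ and 15 and 14 counts in siCo, or 0.570 and 0.518 FPKM in siYAP/TAZ, against 0.483 and 0.461 FPKM in siCo. Both siYAP/TAZ values lay above both siCo values, but the test did not call the gene (log2 fold change 0.25, SE 0.428, 95% interval -0.64 to 1.14, edgeR adjusted p = 0.648). The interval takes in both a rise larger than that of Gja1 and a fall, so that a change was not detectable at this depth. Gja4 lies at chr4:127311421-127314039 on the minus strand.

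Gja5 (connexin 40, of arterial endothelium and atrial muscle) and Gjb2 (connexin 26, of epithelia and the inner ear) were barely read. Gja5 had 0 and 4 counts in siYAP/TAZ and 2 and 1 counts in siCo. Its annotated span, chr3:96904693-97077416, overlaps 4 genes on the opposite strand, and its transcript shares 165 bases with Gpr89 and 856 with a Zfp697 transcript, so that these few counts are uncertain. For Gjb2 (chr14:57098600-57104702, minus strand) the counts were 2 and 4 in siYAP/TAZ and 3 and 10 in siCo. The ratios of summed counts per total count were 1.35 for Gja5 (95% interval 0.229 to 9.23) and 0.468 for Gjb2 (0.146 to 1.32). The intervals cover counting error only, and both include 1.

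Summed over the 5 connexins, the level was 59.9 and 61.6 FPKM in siYAP/TAZ and 44.3 and 43.0 FPKM in siCo, a ratio of means of 1.39. Gja1 made up 89.0% and 89.2% of this sum in siYAP/TAZ, against 75.5% and 76.0% in siCo, a difference of 13.4 percentage points. The Gjc1 share was 10.0% and 9.78% in siYAP/TAZ, against 23.3% and 22.4% in siCo. Gjc1 counts relative to Gja1 counts within a library were lower in siYAP/TAZ by 1.44 on the log2 scale, 2.71-fold (95% interval of the difference -1.60 to -1.28), and the groups did not overlap. For Gja4 relative to Gja1 the value was -0.51 (-0.89 to -0.14), but this interval reflects only how close the 14 to 18 counts of Gja4 lay, with an SE of 0.0875 beside the edgeR SE of 0.428 for Gja4 alone, so that a difference from Gja1 was not shown. For the same ratio, leaving out siCo replicate 1 gave -0.50 and leaving out siCo replicate 2 gave -0.53, each with an interval that included 0. With 2 libraries against 2, an exact permutation test cannot give a p below 0.333, and it gave that value for both ratios (0.417 adjusted over the 5 ratios compared within the 2 families).

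**Figure D2:**
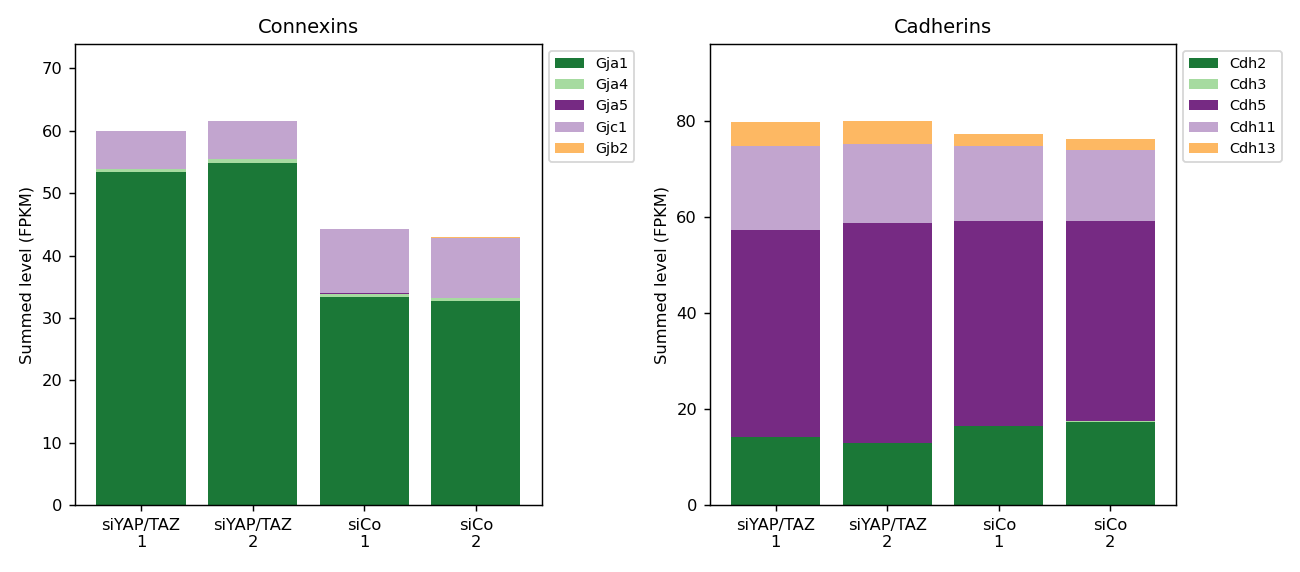
Stacked levels (FPKM, linear axis from 0) of the 5 connexins (left) and 5 cadherins (right) in each library, siYAP/TAZ before siCo. The connexin sum was 59.9 and 61.6 FPKM in siYAP/TAZ and 44.3 and 43.0 FPKM in siCo, with Gjc1 a smaller part of it in siYAP/TAZ, while the cadherin sum was 76.3 to 80.1 FPKM in all 4 libraries.

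Shares between genes depend on the length used. The count table divides by all annotated exon bases of a gene, 10257 for Gja1 in place of the 3182 of its longest coding transcript and 5003 in place of 2314 for Gjc1. Per base of the longest coding transcript, Gja1 averaged 174 FPKM in siYAP/TAZ and 107 FPKM in siCo. It held 92.7% of the connexin sum in siYAP/TAZ and 82.8% in siCo, a difference of 9.98 percentage points. All counts of a gene were divided by this length, including any from exons outside that transcript. Where such exons were read, the values are too high for that transcript. With counts not divided by length, the Gja1 share differed by 7.76 percentage points and was again higher in siYAP/TAZ.

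Among the cadherins, Cdh13 showed the largest change of the 7 tested members. It encodes T-cadherin, a receptor for adiponectin and low-density lipoprotein in vessel cells. Its level was 4.97 and 4.91 FPKM in siYAP/TAZ, against 2.48 and 2.33 FPKM in siCo. Replicates within each group were close, and the groups were far apart. Cdh13 rose by a log2 fold change of 1.08 (SE 0.0707, 95% interval 0.94 to 1.23, 2.12-fold, edgeR adjusted p = 2.69e-11), a larger absolute change than that of 90.5% of tested genes. The gene spans chr8:118283733-119324921 on the plus strand, and the 5 short genes annotated inside this span had at most 1 count in any library.

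Cdh2 encodes N-cadherin, the classical cadherin of SMCs, mesenchymal and nerve cells. It was the only cadherin of the 4 tested that fell. The siYAP/TAZ libraries had 14.1 and 13.0 FPKM, against 16.5 and 17.5 FPKM in siCo. The gap between the nearest libraries of the 2 groups, 14.1 and 16.5 FPKM, was wider than the gap within either. The log2 fold change was -0.28 (SE 0.0525, 95% interval -0.39 to -0.17, 1.21-fold lower, edgeR adjusted p = 0.000113), smaller than the 0.328 median absolute change of all tested genes. Cdh2 lies at chr18:16588877-16809246 on the minus strand.

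Cdh5 encodes VE-cadherin, which is known as the cadherin of endothelial adherens junctions, and it was the most abundant of the 5 cadherins in these libraries labelled as SMCs. Its level was 43.1 and 45.8 FPKM in siYAP/TAZ, against 42.7 and 41.7 FPKM in siCo, higher than that of 91.8% of tested genes by its mean. The lower siYAP/TAZ library lay just above the higher siCo library. The test called Cdh5 higher by a log2 fold change of 0.12 (SE 0.0461, 95% interval 0.023 to 0.22, 1.09-fold, edgeR adjusted p = 0.0334). The call was lost under 6 of 11 alternatives, with adjusted p = 0.306 without siYAP/TAZ replicate 2, 0.0606 without siCo replicate 2 and 0.174 with library totals in place of edgeR's scaling factors. Cdh5 lies at chr8:104101625-104144511 on the plus strand and shares no stretch of 50 identical bases with another annotated transcript.

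Other endothelial markers were read beside Cdh5. All 15 on the list passed the filter, none was at 0, and 10 rose, 2 fell and 3 did not pass the test. Their summed level was 176 to 182 FPKM in siYAP/TAZ and 130 to 131 FPKM in siCo. Pecam1, an adhesion molecule of endothelial junctions, had 15.7 and 15.4 FPKM in siYAP/TAZ, against 13.0 and 12.7 FPKM in siCo. Nos3, the endothelial nitric oxide synthase, had 9.06 and 8.33 FPKM in siYAP/TAZ, against 2.69 and 2.73 FPKM in siCo, and Tek, the angiopoietin receptor, had 5.03 and 4.67 FPKM in siYAP/TAZ, against 2.20 and 1.42 FPKM in siCo. Emcn, a sialomucin of capillary and venous endothelium, was lower, with 15.6 and 16.96 FPKM in siYAP/TAZ, against 21.4 and 23.2 FPKM in siCo, and Vwf, a defining endothelial marker, was at no more than 0.287 FPKM in any library. Of the other markers that rose most, Cldn5 changed by 1.40 and Sox18 by 1.18 on the log2 scale. Their part in the Cdh5 and Gja4 values was not tested.

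Cdh11 encodes cadherin 11 (OB-cadherin), a type II cadherin of mesenchymal cells, osteoblasts and fibroblasts. Its level was 17.5 and 16.4 FPKM in siYAP/TAZ, against 15.7 and 14.8 FPKM in siCo. The groups were separated by less than the gap between the 2 siYAP/TAZ libraries. The test called it higher by a log2 fold change of 0.20 (SE 0.0494, 95% interval 0.095 to 0.30, 1.15-fold, edgeR adjusted p = 0.0018), and without siYAP/TAZ replicate 1 the adjusted p was 0.0552. Cdh11 lies at chr8:102632095-102785642 on the minus strand.

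Cdh11 was also the cadherin whose sequence is repeated elsewhere in the genome. Its longest coding transcript matched 8 other annotated genes, all pseudogenes or noncoding transcripts, over up to 990 bases at 92.9% to 96.3% identity. By the study's RNA-seq methods, only uniquely mapped reads were counted. A read that fits several of these genes equally well would then not be counted, and how many were lost is not known here. Together the 8 copies had 755 and 717 counts in siYAP/TAZ and 993 and 1003 counts in siCo, against 2921 and 2513 counts in siYAP/TAZ and 2577 and 2374 counts in siCo for Cdh11 itself. Of the copies, 4 fell (2610005L07Rik, Gm10557, Gm21092 and Gm21811) and 4 did not pass the test. With the copies added to Cdh11, a step chosen after seeing the data, the counts were 3676 and 3230 in siYAP/TAZ and 3570 and 3377 in siCo, and these overlapped. The log2 fold change of the sum was 0.055 (SE 0.045, 95% interval -0.039 to 0.15, edgeR adjusted p = 0.317). Each copy was added with its whole count, although the match covered only part of the Cdh11 transcript, 193 bases for Gm40466. The sum may therefore also hold reads from outside the matched stretches and is not a level of Cdh11 alone.

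**Figure D3:**
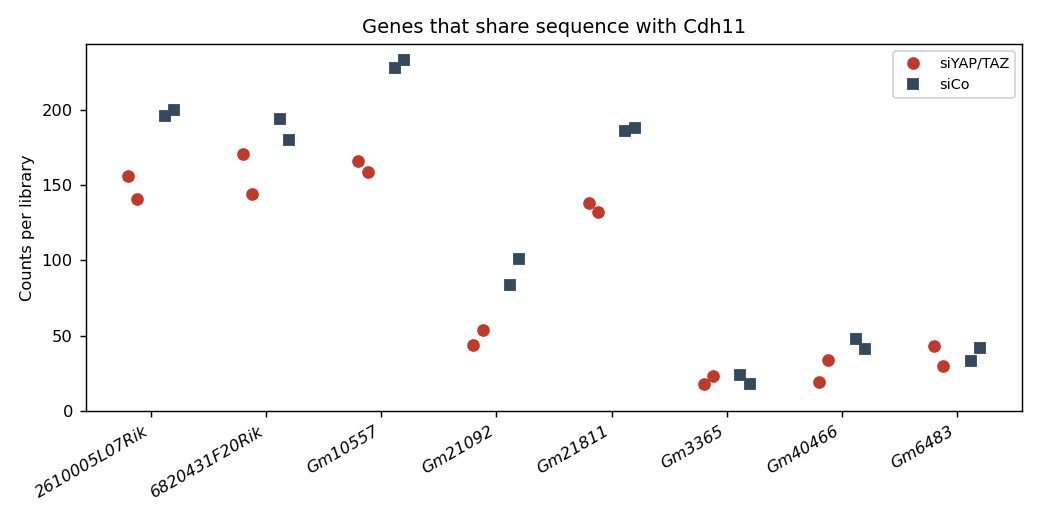
Counts per library (linear axis from 0) of the 8 genes that share sequence with Cdh11, siYAP/TAZ as circles to the left and siCo as squares to the right for each gene. The 4 genes called lower in siYAP/TAZ, 2610005L07Rik, Gm10557, Gm21092 and Gm21811, show no overlap between the groups.

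Cdh3, P-cadherin of basal epithelia (chr8:106510891-106557297, plus strand), had 0 and 1 counts in siYAP/TAZ and 2 and 5 counts in siCo. Its ratio of summed counts per total count was 0.145 (95% interval 0.0032 to 1.13), so that a difference was not detectable at this depth. Of 8 epithelial markers, 5 were tested, 2 rose, 1 fell and 2 did not pass the test, with summed levels of 16.5 to 18.6 FPKM in siYAP/TAZ and 8.19 to 9.79 FPKM in siCo. Krt8 and Krt18, keratins of simple epithelia, rose by 1.82 and 1.12 on the log2 scale and Krt19 fell by 0.70, while Cdh1, the defining epithelial cadherin, was at no more than 0.117 FPKM.

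The sum of the 5 cadherins was 79.7 and 80.1 FPKM in siYAP/TAZ, against 77.3 and 76.3 FPKM in siCo, a ratio of means of 1.04. Within it, Cdh5 held 54.1% and 57.2% in siYAP/TAZ, against 55.2% and 54.6% in siCo, and the groups overlapped. Cdh2 held 17.7% and 16.2% in siYAP/TAZ, against 21.3% and 22.9% in siCo. The Cdh13 share was small in both groups, 6.24% and 6.13% in siYAP/TAZ, against 3.20% and 3.05% in siCo. Measured against Cdh5 counts within each library, Cdh13 was higher in siYAP/TAZ by 0.96 on the log2 scale (95% interval of the difference 0.71 to 1.22), while leaving out siCo replicate 1 gave 0.99 and leaving out siCo replicate 2 gave 0.94, each with an interval that included 0. For Cdh2 relative to Cdh5 the difference was -0.40 (-0.92 to 0.12), and for Cdh11 relative to Cdh5 it was 0.078 (-0.32 to 0.48), so that these changes were not shown to differ from that of Cdh5. The exact permutation p was 0.333 for Cdh13 and Cdh2, the smallest possible, and 0.667 for Cdh11 (0.417, 0.417 and 0.667 adjusted over the 5 ratios).

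**Figure D4:**
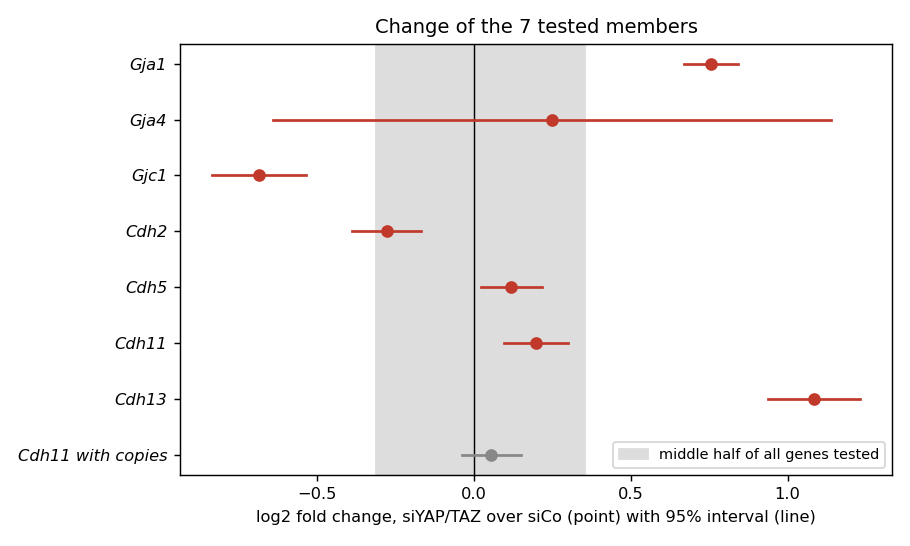
Log2 fold change, siYAP/TAZ over siCo, of the 7 tested members (points) with 95% intervals (lines), and of Cdh11 with the whole counts of its 8 copies added. The shaded band runs between the outer quartiles of all 15479 tested genes, -0.312 to 0.353; Gja1 and Cdh13 lie above it, Gjc1 below it, and the wide line of Gja4 crosses it.

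By mean FPKM over the 4 libraries, the order of the 10 members was Gja1 (43.6), Cdh5 (43.3), Cdh11 (16.1), Cdh2 (15.3), Gjc1 (7.99), Cdh13 (3.67), Gja4 (0.508), Gjb2 (0.11), Cdh3 (0.0253) and Gja5 (0.0173). The order was not the same in the 2 groups. Gja1 led Cdh5 in siYAP/TAZ and Cdh5 led Gja1 in siCo, and Cdh11 led Cdh2 in siYAP/TAZ and Cdh2 led Cdh11 in siCo, with no overlap of libraries in either case. Gjc1 and Cdh13 kept their places in both groups. Per base of the longest coding transcript, Gja1 led Cdh5 in both groups, with 174 FPKM against 46.8 FPKM in siYAP/TAZ and 107 FPKM against 44.4 FPKM in siCo. On the same scale, Cdh2 averaged 22.6 FPKM and Cdh11 26.7 FPKM in siYAP/TAZ, against 28.3 FPKM and 24.1 FPKM in siCo. This scale keeps counts from exons outside that transcript, so the order of Gja1 and Cdh5 in siCo depends on the length used.

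The genes whose levels were most like those of the leading members were found by the summed absolute difference of log2(FPKM + 1) over the 4 libraries. For Gja1 they were Slc43a3 (0.0771), Wbp1l (0.107) and Sh3bgrl (0.118), which rose by 0.71, 0.72 and 0.76 on the log2 scale. For Cdh5 they were Pfn2 (0.149), Slc16a3 (0.154) and Lamtor1 (0.163), of which Pfn2 and Slc16a3 rose by 0.14 and 0.18 and Lamtor1 did not pass the test (0.036).

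The rest of the gap junction family was thinly read. Of 15 other connexins, 4 were tested, of which 3 rose and 1 did not pass the test, and 4 (Gjc3, Gjd2, Gjd4 and Gje1) had no count. The median log2 fold change of the 4 tested was 1.16, beside -0.000329 for all genes. Gjb5, a connexin best known from skin, rose by 1.33 on the log2 scale, with 4.06 and 3.89 FPKM in siYAP/TAZ, against 2.05 and 1.19 FPKM in siCo. Of the 4 proteins on the list of gap junction partners, 3 fell and 1 did not pass the test. Those that fell were Tjp1 (-0.26), the scaffold ZO-1 that binds the tail of connexin 43, Dbn1 (-0.36), the actin-binding drebrin, and Cnst (-0.73), consortin, which binds connexins on their way to the membrane. Of 3 pannexins, channel proteins related in shape to connexins, Panx1 alone was tested and fell by 0.26.

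Of 18 other cadherins, 6 were tested, of which 3 rose and 3 did not pass the test, with a median log2 fold change of 0.38. Cdh17 (1.73), a cadherin of gut epithelium, had 1.00 and 1.07 FPKM in siYAP/TAZ, against 0.182 and 0.459 FPKM in siCo, and the other two that rose, Cdh6 and Cdh23, stayed below 1 FPKM. Of 12 protocadherins, which are cadherin relatives that do not bind catenins, 10 were tested, 4 rose and 3 fell. The protocadherin Pcdh9 had 8.40 and 8.34 FPKM in siYAP/TAZ, against 17.4 and 18.0 FPKM in siCo (log2 fold change -1.04), and Pcdh18 also fell (-1.23), while Pcdh10 (1.78) and Pcdh17 (0.95) rose.

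Genes of the proteins that link cadherins to actin changed in both directions. Of 14 catenin and plaque genes, 12 were tested, 6 fell, 3 rose and 3 did not pass the test, with a median log2 fold change of -0.14. Ctnnb1, beta-catenin, which binds the cadherin tail and also acts in Wnt signalling, rose by 0.56, with 158 and 154 FPKM in siYAP/TAZ, against 108 and 110 FPKM in siCo. Ctnna1, alpha-catenin, the link from beta-catenin to actin, fell by 0.35, with 46.4 and 45.9 FPKM in siYAP/TAZ, against 60.9 and 60.5 FPKM in siCo. Ajuba, a LIM protein that binds alpha-catenin, fell by 1.81, and Pkp4, a p120-related catenin, fell by 0.28. Of 5 nectins and nectin-like proteins, immunoglobulin-type adhesion molecules of the same junctions, 2 rose (Nectin3 0.21 and Pvr 0.18), 1 fell (Nectin2 -0.38) and 2 did not pass the test. Among 5 metalloproteinases on a list of cadherin shedding, 4 rose, with Adam17 at 0.55, Adam15 at 0.45 and Adam10, which cleaves N-cadherin and VE-cadherin, at 0.35, and Adam9 fell by 0.18.

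Of 6 transcription factors known for repressing E-cadherin or for the switch between cadherins, 5 rose and Snai1 fell by 0.36. Twist1 rose by 1.35, with 86.5 and 89.6 FPKM in siYAP/TAZ, against 34.2 and 37.2 FPKM in siCo, and Snai2, Twist2 and Zeb1 rose by 0.84, 0.56 and 0.40. N-cadherin itself, Cdh2, was lower in the same libraries. Of 8 desmosome genes, 7 were tested, 3 rose, 1 fell and 3 did not pass the test, led by the desmosomal cadherin Dsc2 (1.17) and the plaque protein Pkp2 (-0.93) among those over 1 FPKM. Of 14 tight junction genes, 10 were tested, 4 rose, 2 fell and 4 did not pass the test. Jam2 and F11r, junctional adhesion molecules, rose by 1.22 and 1.21, and Cldn12 (-0.47) and Cgnl1 (-0.46) fell.

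**Figure D5:**
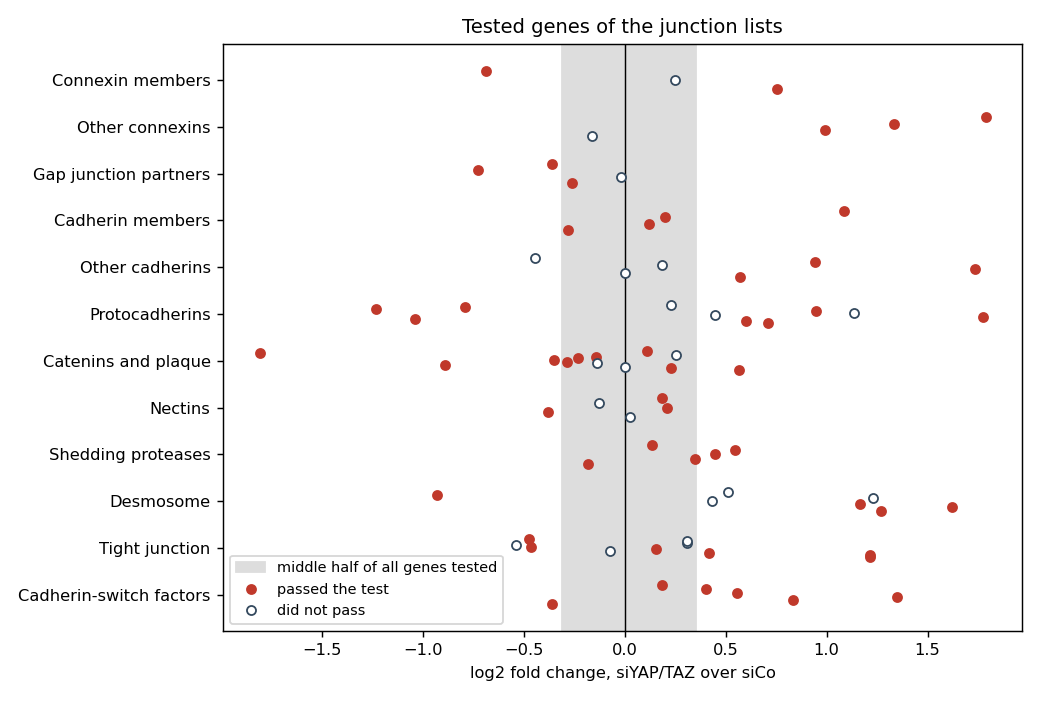
Log2 fold change, siYAP/TAZ over siCo, of every tested gene on the junction lists, filled where the edgeR adjusted p was below 0.05 and open where it was not, with a band between the outer quartiles of all tested genes. Among catenin and plaque genes 6 of 12 fell, and 5 of 6 cadherin-switch factors rose.

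The markers of other cells that carry these junction genes moved as follows, and their part in the member values was not tested. Of 9 fibroblast markers, 8 rose and 1 fell, with sums of 495 to 529 FPKM in siYAP/TAZ and 308 to 378 FPKM in siCo, and Dcn and Col3a1 rose by 0.78 and 1.44 on the log2 scale. Of 8 pericyte markers, 7 were tested, 5 rose and 2 did not pass the test, with sums of 78.2 to 79.6 FPKM in siYAP/TAZ and 39.4 to 44.3 FPKM in siCo, led by Rgs5 (2.66), and Higd1b had no count. Of 8 macrophage markers, 3 were tested and 2 rose, with sums of 13.3 to 17.6 FPKM in siYAP/TAZ and 8.84 to 8.94 FPKM in siCo, while the defining genes Adgre1, Tyrobp, C1qa and C1qb had no count in any library. Of 7 Schwann cell markers, 4 were tested, 2 rose and 1 fell, with sums of 4.65 to 5.21 FPKM in siYAP/TAZ and 5.27 to 6.06 FPKM in siCo.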

How the data were processed

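The data were bulk RNA-seq libraries of mouse SMCs, 2 siYAP/TAZ and 2 siCo. The submitters' processing notes name Trimmomatic, HISAT2 and mm10, without versions. The study's methods add that only uniquely mapped reads were counted. The sources used here give neither strand setting nor annotation release. The authors deposited raw counts per Ensembl gene and FPKM values, and the FPKM equalled the count scaled to kilobases of exon and to the library total for 55573 of 55573 genes in both siCo libraries, so FPKM of all 4 libraries was computed from the counts. The 2 deposited FPKM columns for siYAP/TAZ were not used, nor were the authors' fold changes and p-values. The exon length came from the same table. The 57 rows that name no gene held 0% of counts.

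Counts were tested with edgeR 4.0.16 (R 4.3.3), with TMM scaling, filterByExpr and its minimum count of 10, glmQLFit and glmQLFTest, 18.6 prior and 2 residual degrees of freedom. SE and 95% intervals of fold changes come from that fit, intervals of ratios between members from least squares over the 4 libraries, and intervals of the 3 untested members from exact binomial limits on summed counts. The script was tested on simulated data. DESeq2 1.42.0 and limma 3.58.1 were alternatives, beside other scalings, filters, pseudocounts and leaving out each library. Replicate libraries differed beyond counting noise (chi-square per gene 2.00 in siYAP/TAZ and 3.35 in siCo). Copies were found with blastn 2.17.0. The longest coding transcript is the longest of those with the longest coding sequence.

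The members and the 19 other lists were chosen with earlier results of these data known. The text names all 10 members, Yap1, Wwtr1, Ccn1 and Ccn2, from each list up to 4 called genes with the largest change, at least 1 FPKM and no overlap of groups, and for the leading connexin and cadherin the 3 genes nearest in level. Other genes named (Pecam1, Emcn, Vwf, Myh11, Myocd, Snai1, Cdh6, Cdh23, Cdh1 and those with no count) were chosen after their values were seen. Some genes counted in the lists are not reported here by name.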

Additional observations from a re-analysis of the deposited data

How the results depend on the processing

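The call and direction of Gja1, Gjc1, Cdh2 and Cdh13 were the same under 11 of 11 alternatives, with log2 fold changes of 0.69 to 0.78, -0.73 to -0.64, -0.34 to -0.21 and 0.80 to 1.13, and Gja4 passed under none of 10. Cdh5 lost its call under 6 of 11 alternatives (0.073 to 0.17, adjusted p = 0.0152 to 0.306) and Cdh11 under 4 of 12 (0.055 to 0.25, adjusted p = 2.1e-05 to 0.317). For Cdh5 these included DESeq2 (adjusted p = 0.108) and limma on log2(FPKM + 1) (0.208). For Cdh11 they included the sum with its copies, which gave the 0.055 and is not a level of Cdh11 alone. The count of members called ran from 4 to 6, and the cause of the lost calls was not tested. The genes called in all numbered 6582 with DESeq2 and up to 8628 with library totals, which put 44.3% of calls on the higher side in place of 49.9%.

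Leaving out 1 library, the difference of Gja4 to Gja1 ranged from -0.60 to -0.43 and that of Cdh13 to Cdh5 from 0.91 to 1.02. The Gja1 share of the connexins differed by 7.76 percentage points with counts in place of FPKM and by 9.98 with the length of the longest coding transcript, an alternative added after seeing the data. No direction of a called value was reversed. No paired analysis was possible because the siYAP/TAZ columns could not be matched to single samples. Depth limits Gja4, and Gja5, Gjb2 and Cdh3 could not be tested.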
